A study of Bos taurus with 4 samples.

Results

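Endothelial marker genes were read in granulosa cells, the somatic cells that line the ovarian follicle and feed the oocyte. The set holds 10 genes that mark the inner lining of blood vessels (PECAM1, CDH5, CLDN5, ESAM, TIE1, TEK, ENG, VWF, EGFL7 and EMCN), and every probe that the platform's probe-to-gene table names for 1 of them was taken. That gave 11 probes, of 43794 probes and 15229 gene symbols on the array, with 2 probes for VWF and 1 probe for each other gene.

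Each of 4 two-colour cattle arrays set 1 pool of granulosa cells from good donors against 1 pool from poor donors. Good donors gave oocytes of good developmental competence and poor donors gave oocytes of poor competence, and all animals were Holstein cattle that had received ovarian stimulation followed by coasting, a pause without hormone before collection. Good-donor pools 1 and 2 carried the dye Cy5 on arrays 1 and 2, good-donor pools 3 and 4 carried Cy3 on arrays 3 and 4, and poor-donor pools 9 to 12 carried the other dye of arrays 1 to 4. Before labelling, RNA of every pool went through 2 rounds of linear amplification of 6 hours each. The design text counts 94 animals and sets cows with competent oocytes against heifers with incompetent ones, whereas the array titles name heifers only. Donor age is therefore not settled for either group. The labels also leave out how many animals made up each pool and whether pools shared animals, so a p-value here reflects how far the 4 arrays differed.

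Endothelial cells are joined by adherens and tight junctions, of which VE-cadherin (the product of CDH5) and claudin 5 are the vessel-specific proteins. They respond to angiopoietins through the TIE1 and TEK receptors and store von Willebrand factor for release into blood. The granulosa layer of a follicle has no vessels of its own until ovulation, while the surrounding theca is vascularised, and granulosa cells taken from a follicle can carry along cells of the wall or of blood. In a bulk pool, fewer cells of a type and less RNA per cell cannot be told apart.

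The granulosa identity of the pools was read from its defining genes. INHA, the inhibin alpha subunit, had a normalised log2 level of 15.2 ± 0.39 in good-donor pools and 14.7 ± 0.81 in poor-donor pools (SD, n = 4 each), and FSHR, the receptor for follicle-stimulating hormone, had 10.1 ± 0.15 in good-donor pools and 9.93 ± 0.13 in poor-donor pools. The aromatase gene CYP19A1 was above control spots in all 8 pools, as was INHBA, the inhibin beta A subunit. All 12 granulosa genes fixed as a list were tested, of which 11 had a mean ratio above 0 and 1 below, with a median of 0.17 and medians of -0.01, 0.51, 0.21 and 0.14 on arrays 1 to 4. Over all 31917 tested probes, 15696 had a mean above 0. No granulosa gene passed the adjusted threshold in limma, and 1 had an unadjusted p under 0.05, against 3.55% of all tested probes. It was FOXL2, a transcription factor of granulosa cells (0.17 ± 0.11, limma, unadjusted p = 0.0440). FOXL2 was above control spots in 4 of 4 good-donor pools and 2 of 4 poor-donor pools. The median foreground signal was 49.9 to 54.3 intensity units in the 4 Cy5 channels and 90.5 to 132 in the 4 Cy3 channels, and 66.3% to 74.7% of probes lay above the controls of their channel. The SD of the log2 ratios over tested probes was 0.27 to 0.42, widest on array 4.

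The endothelial marker probes were dim in both groups. A probe was counted as above control spots in a channel when its foreground passed the 95th percentile of the 757 control spots (dark corners and negative controls) read in the same channel. 7 of the 11 probes (CDH5, CLDN5, ESAM, TEK, ENG, EGFL7 and 1 of the VWF probes) passed in all 8 channels, against 56.1% of all probes on the array, and EMCN made 8 of 11 with at least 4 passing channels, against 72.9%. By group, EMCN passed in 3 of 4 good-donor pools and 2 of 4 poor-donor pools. PECAM1 and the second VWF probe passed in no pool, as did 15.6% of all probes, and TIE1 passed in 0 of 4 good-donor pools and 1 of 4 poor-donor pools. The foreground of the 8 probes with at least 4 passing channels was 0.871 to 1.94 times the control value of its channel, and that of the other 3 was 0.825 to 1.01 times. At the 99th percentile of the same control spots, none of the 11 probes passed in all 8 channels, against 29.4% of all probes, and 7 of the 11 passed in at least 4.

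**Figure D1:**
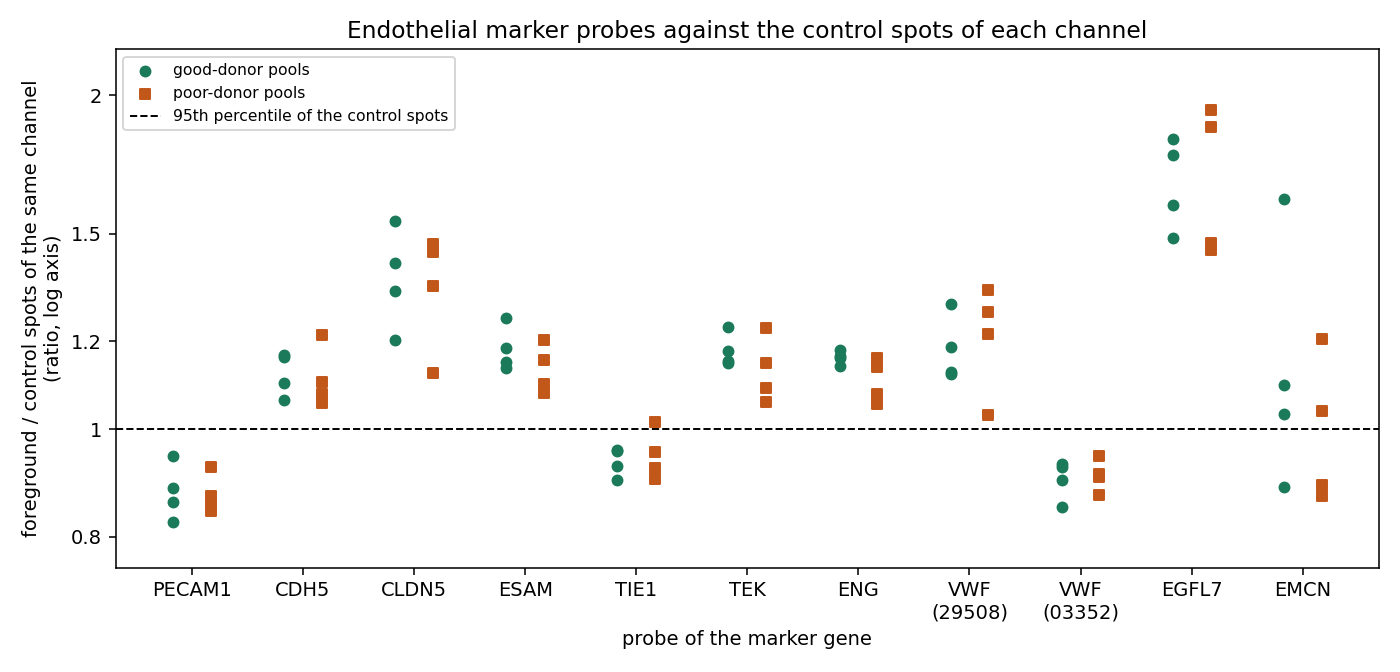
Foreground of each of the 11 endothelial marker probes divided by the 95th percentile of the control spots of the same channel (log axis), with 1 point per pool, good-donor pools left and poor-donor pools right. PECAM1, the second VWF probe and TIE1 lie between 0.825 and 1.01, around or under the dashed control line, and EGFL7 reaches 1.94.

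Good-donor and poor-donor pools did not differ detectably in any of the 8 endothelial marker genes that were tested. The 8 genes with a probe above control spots in at least 4 of 8 channels were tested by limma on the good over poor log2 ratios of the 4 arrays, with Benjamini-Hochberg adjustment over all 31917 probes tested. None of the 8 passed an adjusted p of 0.05, against 0% of all tested probes, and none had an unadjusted p under 0.05, against 3.55% (1132 probes, 2.17% with a mean above 0 and 1.37% below). The adjusted p by limma was 1 for each of the 8 genes after rounding. The mean log2 ratio was above 0 for 4 genes and below 0 for 4, and the widest mean was 0.20 (EMCN). The median over the 8 means was 0.02, against -0.0013 over all tested probes, and the median SD of a ratio over the arrays was 0.19, against 0.17. Levels of the good-donor and poor-donor pools overlapped for all 8 genes, where 1.9% of all tested probes had no overlap, and no gene had the same sign of ratio on all 4 arrays, against 9.29% of all tested probes (5.11% above 0 and 4.18% below). Ratios were computed after adding an offset of 50 intensity units to the corrected signals, which draws the ratios of dim probes towards 0, and levels have a floor of 5.64 on the log2 scale for the same reason. The levels of the control spots' 95th percentile were 6.20 to 6.24 on that scale.

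**Figure D2:**
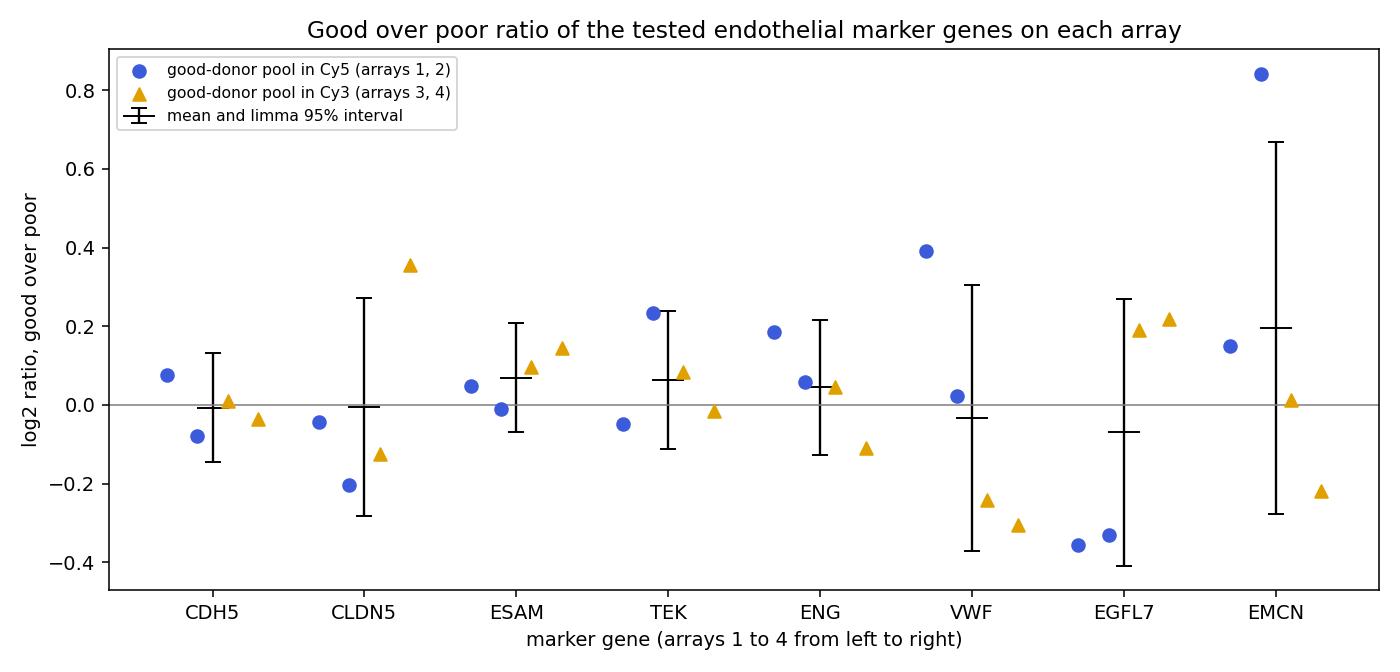
Good over poor log2 ratio of the 8 tested endothelial marker genes on each array (arrays 1 to 4 from left to right within a gene), with circles for good-donor pools in Cy5, triangles for good-donor pools in Cy3, and the mean with limma's 95% interval in black. Every interval crosses 0, and the largest single ratio is 0.84, for EMCN on array 2.

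Among the adhesion and junction genes, CDH5, which encodes the adherens junction cadherin of endothelium, had levels of 6.32, 6.36, 6.42 and 6.37 in good-donor pools 1 to 4, against 6.24, 6.43, 6.41 and 6.41 in the poor-donor pools of arrays 1 to 4. The poor-donor pool of array 1 was the lowest of the 8, and the other values of both groups lay within 6.32 to 6.43. The ratios were 0.08, -0.08, 0.01 and -0.04, with a mean of -0.0074 ± 0.07 (SD, n = 4 arrays), and limma's 95% interval for the fold was 0.904 to 1.10 (unadjusted p = 0.896).

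CLDN5, the tight junction claudin of vessels, had levels of 6.62, 6.54, 6.59 and 6.76 in good-donor pools, against 6.67, 6.74, 6.72 and 6.41 in poor-donor pools. Array 4 was alone in holding the higher level in the good-donor pool, and it held both the highest good-donor and the lowest poor-donor value. The ratios of -0.04, -0.20, -0.13 and 0.36 averaged -0.0044 ± 0.25, with an interval for the fold of 0.823 to 1.21 by limma (unadjusted p = 0.969). Without array 4 the CLDN5 mean was -0.12.

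ESAM, an immunoglobulin-family adhesion molecule of endothelial cells and platelets, had levels of 6.39, 6.42, 6.50 and 6.41 in good-donor pools, against 6.35, 6.43, 6.40 and 6.27 in poor-donor pools. The good-donor pool was higher on 3 of 4 arrays, by ratios of 0.05, 0.10 and 0.14, and the ratio on array 2 was -0.01. ESAM had the smallest unadjusted p of the 8 genes by limma, 0.253, with a mean ratio of 0.07 ± 0.07 and an interval for the fold of 0.953 to 1.16.

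PECAM1, the adhesion molecule CD31 of endothelial cells, platelets and leukocytes, had levels of 6.12, 6.08, 6.06 and 5.99 in good-donor pools and 5.98, 6.12, 5.99 and 6.04 in poor-donor pools. All 8 values lay below the control level of 6.20 to 6.24, so no fold was taken from them. PECAM1 entered limma when the filter on dim probes was removed, with an unadjusted p of 0.613.

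Of the receptors, TEK, the angiopoietin receptor also called TIE2, had levels of 6.40, 6.49, 6.36 and 6.35 in good-donor pools, against 6.44, 6.25, 6.27 and 6.37 in poor-donor pools. The good-donor pool was the higher on arrays 2 and 3 and the lower on arrays 1 and 4. The ratios were -0.05, 0.23, 0.08 and -0.02, with a mean of 0.06 ± 0.13 and an interval for the fold of 0.925 to 1.18 (limma, unadjusted p = 0.398).

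ENG, endoglin, a co-receptor for ligands of the transforming growth factor beta family, had levels of 6.41, 6.42, 6.40 and 6.33 in good-donor pools, against 6.22, 6.36, 6.36 and 6.44 in poor-donor pools. The 4 good-donor values lay within the span of the poor-donor values. The ratios were 0.19, 0.06, 0.05 and -0.11, which averaged 0.05 ± 0.12, with an interval for the fold of 0.916 to 1.16 (limma, unadjusted p = 0.528). Without array 1 the ENG mean was -0.0015.

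TIE1, the orphan partner of TEK, had levels of 6.14, 6.08, 6.17 and 6.14 in good-donor pools and 6.23, 6.15, 6.14 and 6.09 in poor-donor pools. The poor-donor pool of array 1 was the one pool of the 8 above its control spots, so no fold is given, and without the filter on dim probes limma gave an unadjusted p of 0.653.

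Among the secreted proteins, VWF, von Willebrand factor, the carrier and platelet-tethering protein stored in endothelial granules, had levels of 6.56, 6.46, 6.35 and 6.31 in good-donor pools, against 6.17, 6.44, 6.59 and 6.62 in poor-donor pools, by its brighter probe (EMBV3_29508). The good-donor pools were the higher on arrays 1 and 2 and the lower on arrays 3 and 4. The ratios were 0.39, 0.02, -0.24 and -0.31, with a mean of -0.03 ± 0.32 and an interval for the fold of 0.773 to 1.24 (limma, unadjusted p = 0.810). The second VWF probe (EMBV3_03352), below control spots in all 8 pools, had levels of 6.02 to 6.09 in good-donor pools and 6.03 to 6.16 in poor-donor pools.

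EGFL7, a secreted epidermal growth factor-like protein of vessel walls, had levels of 6.72, 6.83, 7.06 and 6.92 in good-donor pools, against 7.08, 7.16, 6.87 and 6.70 in poor-donor pools. Its foreground relative to the control spots of its channels was 1.49 to 1.83 times in good-donor pools and 1.45 to 1.94 times in poor-donor pools. The ratios were -0.36, -0.33, 0.19 and 0.22, so arrays 1 and 2 and arrays 3 and 4 had opposite signs, as for VWF but the other way round. The mean was -0.07 ± 0.32, with an interval for the fold of 0.753 to 1.21 by limma (unadjusted p = 0.619).

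EMCN, endomucin, a sialomucin of venous and capillary endothelium, varied most between pools. Its levels were 6.33, 6.77, 6.06 and 6.21 in good-donor pools, against 6.18, 5.93, 6.04 and 6.43 in poor-donor pools. Good-donor pool 2 was the highest of the 8, at 1.61 times its control spots, and the poor-donor pool of the same array had the lowest level, at 0.890 times its control spots. The ratios were 0.15, 0.84, 0.01 and -0.22, with a mean of 0.20 ± 0.46 and an interval for the fold of 0.825 to 1.59 (limma, unadjusted p = 0.336). Without array 2 the mean was -0.02. With an offset of 0 in place of 50, an alternative chosen after seeing the data, the ratio on array 2 was 2.14 and the mean 0.50 ± 1.18, with an interval for the fold of 0.684 to 2.91. Offset 0 also widened the intervals of the other 7 genes, for example to 0.575 to 1.56 for VWF, 0.680 to 1.48 for CLDN5 and 0.911 to 1.44 for ESAM, and it gave mean ratios of 0.20 for ESAM, 0.18 for TEK and 0.13 for ENG, none past the adjusted threshold in limma.

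Ratios were also read by the dye of the good-donor pool. The EGFL7 ratio averaged -0.34 where good-donor pools were in Cy5 and 0.20 where they were in Cy3, and the VWF ratio averaged 0.21 and -0.27 in that order of dyes. These were the 2 genes of the 8 with one sign on both Cy5 arrays and the opposite sign on both Cy3 arrays, a pattern held by 29.4% of all tested probes. A dye term in limma had an unadjusted p of 0.00275 for EGFL7 (adjusted p = 0.195) and 0.0426 for VWF (adjusted p = 0.287), and 16.6% of all tested probes had an unadjusted p under 0.05 for that term. No probe passed an adjusted p of 0.05 for the dye term (limma, 5304 at an unadjusted p under 0.05). Each dye orientation covers 2 arrays with their own pools, so dye and pools cannot be told apart for a single gene.

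**Figure D3:**
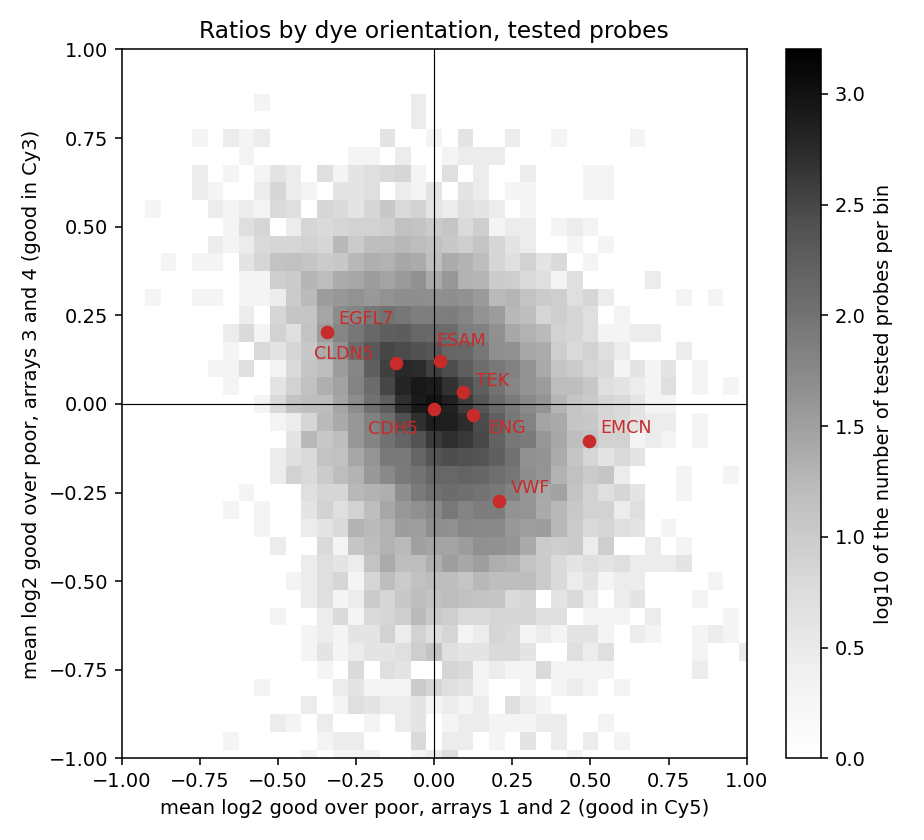
Mean good over poor log2 ratio of arrays 1 and 2 (good-donor pools in Cy5, x axis) against that of arrays 3 and 4 (good-donor pools in Cy3, y axis), with all tested probes as grey bins (log10 of the number of probes per bin) and the 8 tested endothelial marker genes in red. Probes beyond 1 on either axis lie outside the frame, EGFL7 lies at -0.34 and 0.20, and VWF lies at 0.21 and -0.27.

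A wider set of 91 endothelial genes was read beside the markers in 6 lists, of which 86 genes had a probe and 65 were tested. None of the 65 passed the adjusted threshold in limma, and 1 had an unadjusted p under 0.05, against the 3.55% of all tested probes. Of the 65, 30 had a mean ratio above 0 and 35 below, and the median was -0.0088. The gene with an unadjusted p under 0.05 was ETS2, a transcription factor of many cell types, with a mean ratio of -1.16 ± 1.09, limma's unadjusted p = 0.0412 and adjusted p = 1. Its ratios were -0.85, -0.83, -0.24 and -2.74, so the good-donor pool was the lower on each of the 4 arrays and array 4 had the widest gap.

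Receptors outside the marker set gave 8 genes with a mean above 0 and 4 below among 12 tested, with a median of 0.02. FLT1, a receptor for vascular endothelial growth factor, was above control spots in no pool. BMPR2, the type II receptor for bone morphogenetic proteins, averaged 0.13 ± 0.10, and NRP1, a co-receptor for semaphorins and vascular endothelial growth factor, averaged 0.30 ± 0.37, both with an adjusted p of 1 by limma. PROCR, the protein C receptor, averaged -0.23 ± 0.59.

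Surface and junction genes had 7 means above 0 and 12 below among 19 tested, with a median of -0.03. The tight junction genes OCLN, F11R and CLDN1 averaged -0.12, -0.43 and 0.40, and all 3 are also expressed in epithelia. The enzymes and signalling genes had 7 means above 0 and 1 below among 8 tested, with a median of 0.16, led by ECE1, the endothelin-converting enzyme, at 0.42 ± 0.45. Transcription factors had 1 mean above 0 and 11 below among 12 tested, with a median of -0.07, and besides ETS2 the genes with the smallest unadjusted p were HHEX (-0.23) and HEY2 (0.15).

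The arterial and Notch genes had 3 means above 0 and 6 below among 9 tested. DLL4, a Notch ligand of arterial and sprouting endothelium, had ratios of 0.14, 0.39, 0.05 and 0.17 on the 4 arrays, with a mean of 0.19 ± 0.14 (limma, unadjusted p = 0.0504, adjusted p = 1). The good-donor pool was the higher on each array, a sign pattern that 5.11% of all tested probes held. JAG1, another Notch ligand, averaged -0.67 ± 1.41 and APLN, the peptide apelin, averaged -0.05. Of the lymphatic genes, 4 means lay above 0 and 1 below among 5 tested, led by PDPN at 0.09, STAB1 at 0.07 and RELN at 0.31, none of them past the adjusted threshold.

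Ratios on single arrays spread more widely in the wider set, a difference between the sets that was not tested. None of the 8 tested markers reached a 2-fold difference on any array, whereas 13 of the 65 wider genes (20%) did on at least 1. For comparison, 4.46% of all tested probes did, as did 6.94% of all genes by their brightest tested probe. Levels with the main offset have a floor of 5.64. The highest level was 6.43 for CDH5, 6.44 for ENG, 6.49 for TEK, 6.50 for ESAM and 6.62 for VWF. These dim markers had little room for a 2-fold ratio. Their absence from the 2-fold count therefore does not show that they varied less than the wider genes. With an offset of 0, 1 of the 8 markers (EMCN, on array 2) passed 2-fold, against 11.6% of all tested probes. The count for the 65 wider genes at that offset is not given here. The 13 genes, named after their values were seen, were CLDN1, ECE1, ETS2, F11R, GIMAP4, JAG1, KDR, KLF4, LMO2, NOS3, RELN, SELP and THBD. NOS3, the endothelial nitric oxide synthase, had ratios of 1.52, 0.20, -0.30 and -0.96, and LMO2, a haematopoietic and endothelial transcription cofactor, had 2.40, -0.86, -0.65 and -1.09. KDR, the main receptor for vascular endothelial growth factor, had 1.25, 0.07, -0.66 and 0.47. SELP, the selectin of endothelial and platelet granules, had 1.69, -1.46, -0.92 and -0.19. On array 1, 6 of the 13 genes passed 2-fold, all higher in the good-donor pool (these 4, CLDN1 and RELN), and each of the 6 changed sign between arrays. Arrays 2 and 3 held 3 and 1 such genes, and array 4 held 8, of which KLF4 (-3.49), GIMAP4 (-3.44), ETS2 (-2.74), THBD (-1.77), F11R (-1.35) and LMO2 were lower in the good-donor pool and RELN (1.66) and ECE1 (1.04) higher.

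Cells other than endothelium share some of the markers, since VWF is also in platelets and PECAM1 is in platelets and leukocytes. The summed normalised level of the marker genes was 847 to 882 intensity units in good-donor pools and 838 to 870 in poor-donor pools. Each gene's level in such a sum holds the offset of 50, and the marker probes lay close to the control spots. The marker sums are therefore not a measure of how many endothelial cells were present. Of 5 platelet genes tested none passed the adjusted threshold. The summed level of all 8 platelet genes with a probe was 1600 to 1997 in good-donor pools and 1526 to 2232 in poor-donor pools. GP1BA, 1 of these genes, had levels of 9.73 to 10.6 over the 8 pools and weighs heavily in the sum. TREML1 was above control spots in no pool, and ITGA2B in 0 of 4 good-donor pools and 1 of 4 poor-donor pools. PF4, platelet factor 4, was above control spots in 1 of 4 good-donor pools and 2 of 4 poor-donor pools. All 8 red cell genes with a probe summed to 682 to 1124 in good-donor pools and 756 to 2329 in poor-donor pools. The sum includes CA1, carbonic anhydrase 1, which was not tested. By its brighter probe, CA1 was above control spots in 0 of 4 good-donor and 3 of 4 poor-donor pools. Its level reached 10.5 in the poor-donor pool of array 4. The 5 red cell genes tested had 2 means above 0, 3 below and a median of -0.0078. The globin genes HBB and HBA were above control spots in all 8 pools, with mean ratios of -0.21 ± 1.24 for HBB and 0.22 ± 1.18 for HBA.

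All 12 leukocyte genes tested had a mean ratio below 0, with a median of -0.26, but none passed the adjusted threshold or an unadjusted p of 0.05 in limma. Their median ratio was 0.07, -0.09, 0.01 and -0.94 on arrays 1 to 4. The summed level of all 15 leukocyte genes with a probe was 1446 to 1934 in good-donor pools and 1907 to 6534 in poor-donor pools. PTPRC, the pan-leukocyte antigen CD45, was above control spots in all 8 pools by its brighter probe and in none by the other. On array 4 the marker genes had a median ratio of -0.03, and the wider endothelial genes had -0.085. Pericyte and smooth muscle genes had a median of -0.02 over 9 tested, and the 7 theca genes tested had 0.01. Of these 7, 1 had an unadjusted p under 0.05, against 3.55% of all tested probes. It was LHCGR, the receptor for luteinizing hormone (0.28 ± 0.23, limma, unadjusted p = 0.0373), which did not pass the adjusted threshold. CYP17A1, the androgen-producing enzyme of theca, was above control spots in 4 of 4 good-donor and 3 of 4 poor-donor pools, with a mean ratio of 0.01 ± 0.06. What part cells of these types have in the marker levels was not tested.

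**Figure D4:**
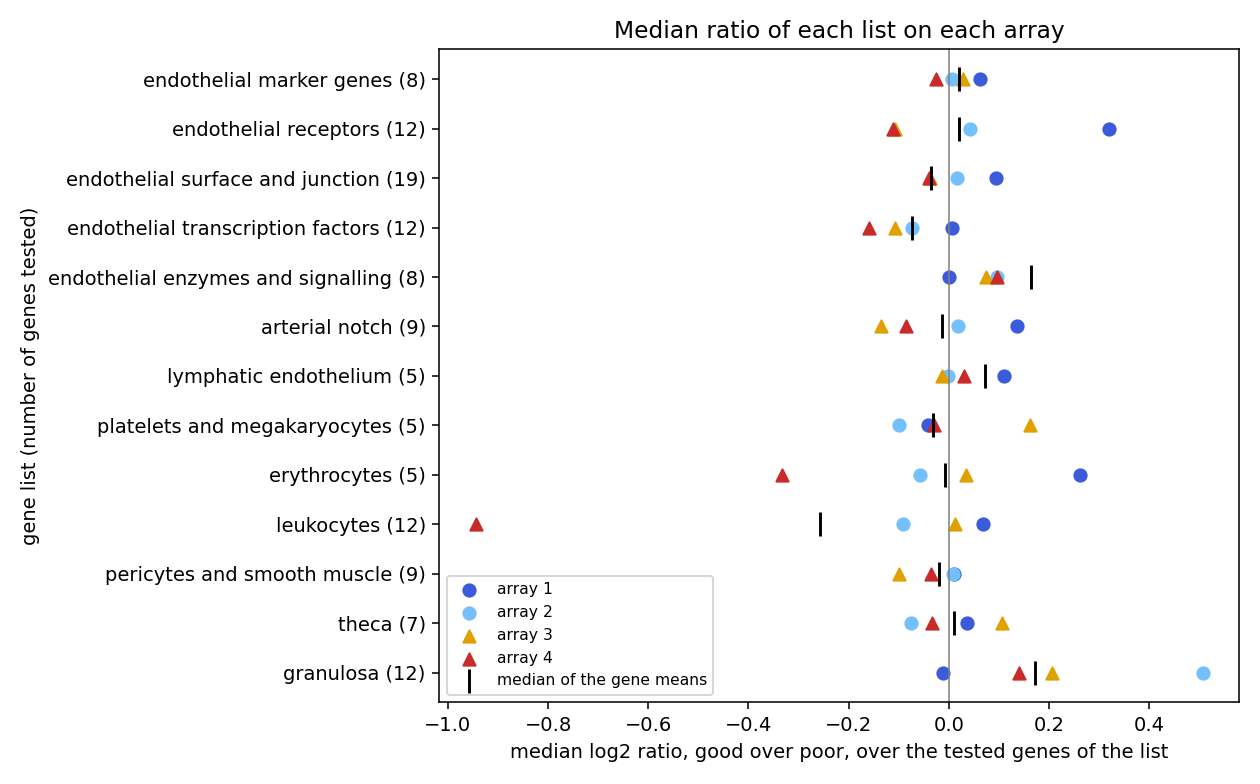
Median good over poor log2 ratio of each gene list on arrays 1 to 4 (circles for good-donor pools in Cy5, triangles for Cy3) with the median of the gene means as a black bar, and the number of genes tested in brackets. The endothelial marker genes lie between -0.03 and 0.06 on the 4 arrays, and the leukocyte genes reach -0.94 on array 4.

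The median ratio of the marker genes was 0.06, 0.01, 0.03 and -0.03 on arrays 1 to 4. Over 12486 tested genes outside the lists, the 5 with the smallest root mean square difference from this profile over the 4 arrays were FFAR1 (0.0127), ZMYM4 (0.0148), COPS7B (0.0166), CLSTN2 (0.0168) and C1QL2 (0.0169), on the log2 scale. The profile lies close to 0 on every array, so these are genes with ratios near 0, and the 4 arrays share the 8 pools.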

How the data were processed

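The deposited scanner files of the 4 arrays, all on 1 slide, hold, per the file headers, the unnormalized intensity of each spot and its local background at 635 nm for Cy5 and 532 nm for Cy3. Background was corrected with normexp (offset 50) on mean foreground and median local background. Ratios were normalized within arrays by loess with control spots at weight 0, and levels were scaled between arrays by Aquantile (R 4.3.3, limma 3.58.1, statmod 1.5.0). The labelled dyes set the sign of each ratio so that positive means higher in good-donor pools. Probes above the 95th percentile of the control spots in at least 4 of 8 channels were tested by lmFit and eBayes, two-sided, at an adjusted p of 0.05. A gene was represented by its brightest tested probe.

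The authors' deposited table of log2 ratios served as an alternative. Its columns correlated with the good over poor ratios at -0.985, -0.975, -0.969 and -0.984 across 31917 probes of arrays 1 to 4, so it holds poor over good, and its medians were 0.02, 0.0039, -0.02 and -0.03. The normalization behind it is not given in the sources used here. Of its per-sample columns, 0 were left unused.

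Gene names are those of the platform annotation, and 10 of 10 marker symbols are in the RefSeq gene table. Of 167 genes in 13 lists, 154 matched a probe's symbol, 2 a synonym and 11 none. Markers, lists and tests were chosen with earlier results of these data known. Named genes are all 10 markers, for each other list up to 3 genes with the smallest unadjusted p, 8 defining genes of the cell types, and the 5 genes most like the markers' median profile. Outside this rule, genes past 2-fold on an array (KDR, NOS3, LMO2, SELP, GIMAP4, KLF4 and THBD among them) were named after their values were seen. The same holds for FLT1, CA1, GP1BA, TREML1 and ITGA2B. Alternatives were other background corrections, normalizations, filters, models, thresholds and probe rules, the deposited table, leaving out each array, and, chosen after seeing the data, an offset of 0. The tests were checked on simulated data. The number of arrays limits the precision.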

Additional observations from a re-analysis of the deposited data

Results flagged for a closer look

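The CDH5 level of the poor-donor pool on array 1, 6.24, stood apart from the other 3 poor-donor pools, at 6.41 to 6.43. The median ratio of the leukocyte genes on array 4, -0.94, stood apart from the other 3 arrays, at -0.09 to 0.07. Of 46 sets of 4 values examined in this way, 2 stood apart, where chance gives about 2.3 (5%).

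In 6 of 21 sets of ratios, both arrays with good-donor pools in Cy5 had one sign and both with good-donor pools in Cy3 the other, against 29.4% of all tested probes. The sets include medians of lists, whereas the 29.4% is a share of single probes, so the measures are not alike. The markers were EGFL7, at -0.34 in Cy5 and 0.20 in Cy3, and VWF, at 0.21 and -0.27, with adjusted p for a dye term of 0.195 and 0.287 (limma). The list medians in that order were 0.18 and -0.11 for endothelial receptors, 0.055 and -0.038 for surface and junction genes, 0.078 and -0.11 for arterial and Notch genes, and 0.0095 and -0.07 for pericyte and smooth muscle genes. The difference between the dye orientations was not tested for these lists.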

How the results depend on the processing

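No marker gene passed the adjusted threshold under any of 16 alternatives (127 values, smallest limma adjusted p 0.906, smallest unadjusted p 0.136), and 16 of the 127 reversed sign, 11 of them among the 32 that leave out an array. Besides those, CDH5 reversed to 0.0099 with no background correction and 0.044 with median foreground, and CLDN5 to 0.0018 and 0.040 under these and 0.0030 with offset 0. The cause was not tested. The markers' median was 0.0658 with offset 0. The number of marker probes above control spots in all 8 channels was 0 at the 99th percentile and 7 at the 95th. Over all probes, 73 passed an unadjusted p of 0.05 with a 1.5-fold mean, against 0 by adjusted p. That count was 71 to 353 without 1 array, highest without array 1, and 120 with median foreground, 116 with an intensity trend, 161 with the authors' deposited table and 344 with offset 0. In the lists 1 gene passed this rule, and 0 to 8 without 1 array. Leaving out 1 array gave mean ratios of -0.17 to 0.058 for VWF, -0.035 to 0.016 for CDH5, 0.0065 to 0.10 for TEK, -0.12 to 0.062 for CLDN5, 0.044 to 0.096 for ESAM, -0.17 to 0.026 for EGFL7, -0.020 to 0.33 for EMCN and -0.0015 to 0.097 for ENG, and a median of 0.017 to 0.051. The ratio within each array pairs the pools by array, and the fit of separate channels with the array as a random block also gave 0 marker genes past the adjusted threshold. The marker probes lie close to the control spots, and with offset 0 limma's intervals for the fold widened, to 0.575 to 1.56 for VWF, 0.680 to 1.48 for CLDN5 and 0.911 to 1.44 for ESAM, so the intervals at offset 50 are not limits on the size of a difference.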
